A study of Mus musculus with 9 samples.

Results

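The nuclear genes for respiratory complexes III and IV, ATP synthase and cytochrome c were examined in liver RNA sequencing of Apoe-/- mice with and without MIF-2. Members were protein-coding nuclear genes whose older or newer symbol begins with Uqcr, with Cox4 to Cox8 or with Atp5, plus Cyc1 and Cycs, with at least 1 count in 3 or more libraries. Of 48 genes with such names, 47 of the 27179 genes in the table were kept, namely 9 of complex III, 17 of complex IV, 20 of ATP synthase and Cycs. Cox7b2, a testis form of a complex IV subunit, had counts in 1 library and was left out. Dmac2 (complex I assembly) and Dmac2l (coupling factor B) entered the ATP synthase group through their older names Atp5sl and Atp5s and are described apart from the subunits.

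Complex III passes electrons from ubiquinol to cytochrome c, and complex IV passes them from cytochrome c to oxygen. Both pump protons across the inner mitochondrial membrane, and ATP synthase uses the returning protons to turn a ring of c subunits and make ATP. Each complex is built from many nuclear-encoded subunits, a few mitochondrially encoded ones and dedicated assembly factors. Hepatocytes are rich in mitochondria and use this ATP for glucose, lipid and protein synthesis. Several complex IV subunits have paralogues whose genes are used mostly in heart and skeletal muscle, lung or testis.

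The livers came from mice on a C57BL/6 background. The mice were put on a Western-type high-fat diet (HFD) at 8 weeks of age and kept on it for 12 weeks. The study describes female mice for its 12-week diet and also reports males, but does not give the sex of the sequenced livers. All of the mice lacked Apoe, which raises plasma cholesterol. Of the 9 libraries, 4 came from mice that also lacked Mif-2 in the whole body (Mif-2-/-Apoe-/-) and 5 from Apoe-/- controls. RNA was isolated from lysates pooled from 3 to 4 fixed, frozen liver sections. The labels name 5 Apoe-/- libraries, more than the mice per group stated for these data, and do not tie a library to a mouse, so p-values here measure the spread between these libraries. A positive log2 fold change means a higher level in Apoe-/- livers, and levels are in CPM, counts scaled to 1e6 with TMM factors.

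Libraries held 2318148 to 10764182 counts. Ddt, which encodes MIF-2, had 1205 to 4820 counts in Apoe-/- and 6 to 27 counts in Mif-2-/-Apoe-/- libraries, a log2 fold change of 7.27 (edgeR, adjusted p = 2.2e-05), so each library matched its genotype label. The hepatocyte markers were abundant in every library, with a summed level between 63672.5 and 198246 CPM, and the ranges of hepatocyte, Kupffer cell, endothelial, stellate, cholangiocyte, lymphocyte, erythroid, muscle and adipocyte marker sums all overlapped between the genotypes. In such bulk tissue, fewer cells of a type and less RNA per cell cannot be told apart. Among 16860 genes tested with edgeR's quasi-likelihood test, 22 (0.13%) had an adjusted p under 0.05.

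Subunit transcripts of all 3 complexes were, on average, higher in Apoe-/- than in Mif-2-/-Apoe-/- livers, but the libraries overlapped and no member passed the edgeR test. The test covered 45 members, since Uqcr11 and Cox8c had too few libraries with a count in either genotype. The log2 fold change was above 0 for 39 of the 45, against 43.5% of all genes, and the median was 1.06 for the 8 tested members of complex III, 1.18 for the 16 of complex IV, 0.93 for the 20 of ATP synthase and 1.49 for Cycs. The median of all genes tested was -0.17, and that of the 1901 genes at a mean of at least 100 CPM was 0.25. Without adjustment, 25 members had p under 0.05 in the higher direction, which 6.52% of all genes had, and 1 member, Dmac2, in the lower direction, which 8.99% had. The lowest adjusted p of any member by edgeR was 0.137, for Cox5a. DESeq2, the tool named in the study's methods, called 6 members, all higher in Apoe-/- livers, namely Cox5a, Atp5b, Uqcrh, Atp5d, Atp5g3 and Cox8a, where it called 1.96% of all genes higher.

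**Figure D1:**
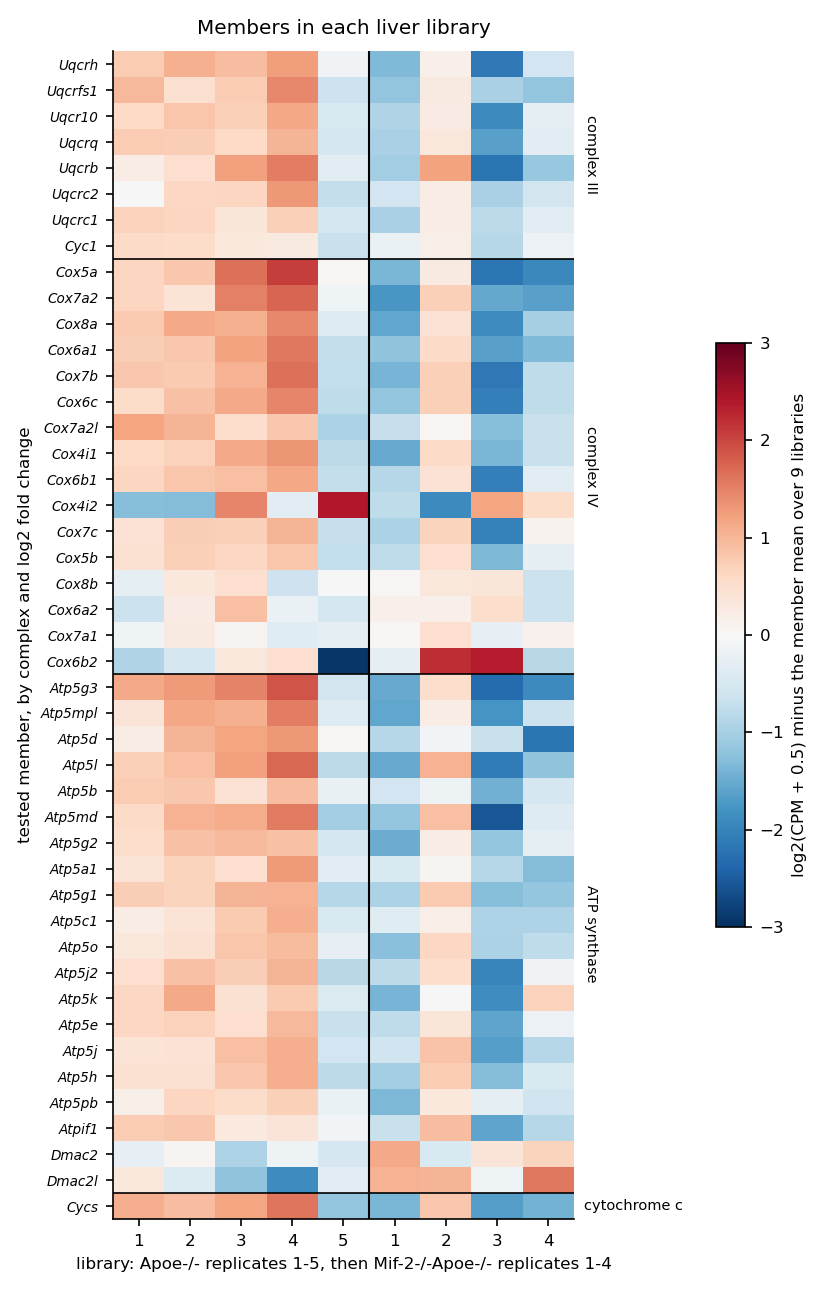
Heat map of the 45 tested members (rows, by complex and falling fold change) in the 9 libraries (columns, Apoe-/- left of the line). Colour is log2(CPM + 0.5) minus the member's mean over the libraries. Apoe-/- replicate 5 is pale or blue and Mif-2-/-Apoe-/- replicate 2 pale or red for most members, against the colour of the rest of their groups.

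One library in each genotype lay apart from its group, towards the other genotype, at most members. Apoe-/- replicate 5 was the lowest of the 5 Apoe-/- libraries for 39 of 45 members, and Mif-2-/-Apoe-/- replicate 2 was the highest of the 4 Mif-2-/-Apoe-/- libraries for 38. At the far ends, Apoe-/- replicate 4 was the highest of its group for 34 members and Mif-2-/-Apoe-/- replicate 3 the lowest of its group for 31. The level in Mif-2-/-Apoe-/- replicate 2 exceeded that in Apoe-/- replicate 5 for 43 of 45. As a result, Atp5d alone was higher in every Apoe-/- than in every Mif-2-/-Apoe-/- library, where 2.24% of all genes were. Without Apoe-/- replicate 5 that count was 22 members (6.1% of all genes), and without Mif-2-/-Apoe-/- replicate 2 it was 20 (5.53%). Leaving out Mif-2-/-Apoe-/- replicate 2 also gave 13 members an adjusted p under 0.05 by edgeR, all higher in Apoe-/- livers, where 1.23% of all genes were called higher. These were 2 of complex III, 5 of complex IV, 5 of ATP synthase and Cycs, whereas without Apoe-/- replicate 5 none was called.

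**Figure D2:**
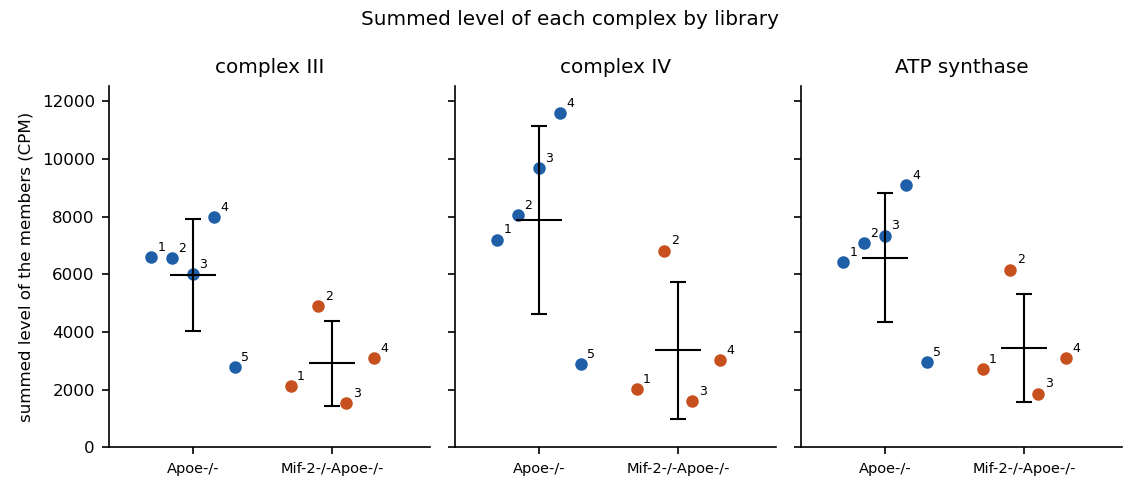
Summed level of the members of each complex (CPM, linear axis from 0) in each library. Numbers are replicates, horizontal marks the mean and bars 1 SD. In all 3 panels Apoe-/- replicates 1 to 4 lie above every Mif-2-/-Apoe-/- library, and Apoe-/- replicate 5 lies within the Mif-2-/-Apoe-/- range.

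The 47 members together took 1.49, 1.51, 1.71, 1.76 and 0.858% of all counts in Apoe-/- replicates 1 to 5 and 0.62, 1.37, 0.518 and 0.808% in Mif-2-/-Apoe-/- replicates 1 to 4. A list of 20 abundant hepatocyte transcripts, such as Alb, Apoa1 and Ttr, took 22.9, 23, 25, 25.9 and 13.8% and 13, 27, 11.2 and 15.5%. The 2 libraries that stood apart for the members thus also stood apart for the secretory transcripts of hepatocytes, low in Apoe-/- replicate 5 and high in Mif-2-/-Apoe-/- replicate 2. Set against each other, the members had 6.5, 6.58, 6.85, 6.79 and 6.22 counts per 100 hepatocyte-list counts in Apoe-/- and 4.78, 5.07, 4.64 and 5.2 in Mif-2-/-Apoe-/- libraries. On this scale, chosen after the levels were seen and given with no test, the genotypes did not overlap, and they did not overlap for complex III, complex IV or ATP synthase taken alone. The range was 1.78 to 2.10 against 1.38 to 1.74 for complex III, 2.07 to 2.86 against 1.41 to 1.92 for complex IV, and 2.05 to 2.17 against 1.72 to 1.87 for ATP synthase. Of the 45 members, 7 did not overlap and were higher in Apoe-/- livers relative to the hepatocyte list (1.16% of all genes), namely Cox5a, Cox8a, Cox6a1, Uqcrh, Uqcr10, Atp5g3 and Atp5mpl, and Dmac2l was the 1 that did not overlap and was lower (2.5% of all genes). This was not particular to the members. On the same scale 12 of 37 complex I subunits and 4 of the 12 tested genes of the hepatocyte list itself did not overlap and were higher, and 0 were lower. The median log2 ratio of the genotype means was 0.43 for the members, 0.42 for complex I, 0.37 for the tested hepatocyte-list genes and -0.84 for all genes. With the share of the 10 most highly expressed genes as a covariate in edgeR, 39 members kept a log2 fold change above 0, the medians were 0.63 for complex III, 0.69 for complex IV, 0.53 for ATP synthase and 0.85 for Cycs, and none was called. The part of the hepatocyte transcripts in the genotype difference was not tested.

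**Figure D3:**
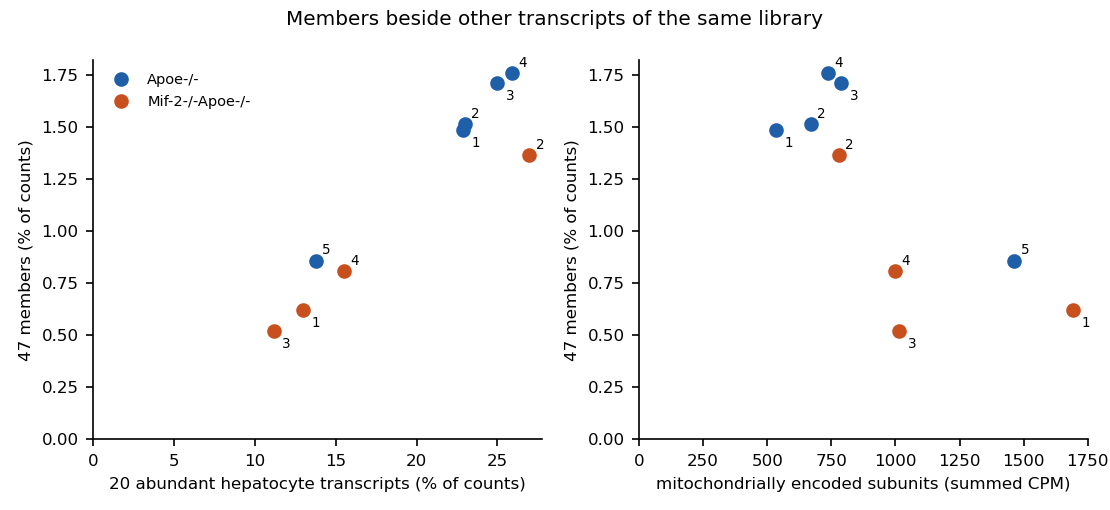
Share of counts of the 47 members (vertical axis, percent) in each library against the share of 20 abundant hepatocyte transcripts (left, percent) and the summed level of the mitochondrially encoded subunits of the same complexes (right, CPM). Each point is 1 library, numbered by replicate. In Mif-2-/-Apoe-/- replicate 2, at a hepatocyte share of 27.0%, the members take 1.37% of counts. In Apoe-/- replicates 3 and 4, at 25.0% and 25.9%, they take 1.71% and 1.76%.

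Promoter sequences from RefSeq (GRCm38.p6, 250 bases before to 50 after the start) were found for 36 members and searched on both strands for motifs of 4 factors that act on nuclear respiratory genes. The NRF1 motif GCGCANGCG was in 12 of the 36 members (33.3%), against 7.03% of all genes with a promoter and 12.8% of those tested by edgeR, and the ETS motif CCGGAAG bound by GABPA was in 11 (30.6% against 9.93% and 16.7%). The YY1 motif AANATGGC was in 7 (19.4% against 6.96% and 8.71%), and the oestrogen-related receptor motif TCAAGGTCA in 1, Atp5g3 (2.78% against 0.466% and 0.353%). At least 1 of the 4 was in 23 of the 36 members, 63.9% against 21.1% of all genes and 32.5% of those tested. A match is a description of letters and not of binding. Shown are the 3 c ring genes, whose balance differed between the genotypes, the liver form Cox6a1, and the members of complexes IV and III with the lowest p, Cox5a and Uqcrh. Capitals mark motif matches, which lie at -42 and -41 (1 run, 2 overlapping NRF1 matches) in Atp5g2, at -52 (oestrogen-related receptor) and 13 (NRF1) in Atp5g3, at -162, -161 and -117 (NRF1) and -16 (GABPA) in Cox6a1, and at -10 (GABPA) in Uqcrh, counted in bases from the start site to the first letter. Atp5g1 (chr11:96075582-96075881, - strand) and Cox5a (chr9:57520982-57521281, + strand) held none, and the others lie at chr15:102670998-102671297, - strand, chr2:73911277-73911576, - strand, chr5:115348909-115349208, - strand and chr4:116075021-116075320, - strand.
Atp5g1: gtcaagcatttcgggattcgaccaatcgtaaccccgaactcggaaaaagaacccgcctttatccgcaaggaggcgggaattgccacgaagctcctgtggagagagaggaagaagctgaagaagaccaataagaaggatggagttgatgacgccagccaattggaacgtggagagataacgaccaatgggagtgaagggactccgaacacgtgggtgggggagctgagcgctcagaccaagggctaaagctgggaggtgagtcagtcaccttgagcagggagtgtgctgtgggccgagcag
Atp5g2: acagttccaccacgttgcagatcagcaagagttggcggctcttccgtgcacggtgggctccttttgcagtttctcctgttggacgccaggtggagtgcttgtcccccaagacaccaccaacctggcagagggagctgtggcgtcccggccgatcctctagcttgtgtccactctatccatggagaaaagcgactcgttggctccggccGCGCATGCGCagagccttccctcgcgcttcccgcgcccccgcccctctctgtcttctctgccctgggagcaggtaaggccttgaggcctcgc
Atp5g3: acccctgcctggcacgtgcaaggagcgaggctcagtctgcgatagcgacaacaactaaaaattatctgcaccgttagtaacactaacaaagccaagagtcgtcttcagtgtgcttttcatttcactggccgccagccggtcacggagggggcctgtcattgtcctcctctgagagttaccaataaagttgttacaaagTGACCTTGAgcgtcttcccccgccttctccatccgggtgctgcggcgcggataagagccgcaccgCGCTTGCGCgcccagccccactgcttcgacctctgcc
Cox6a1: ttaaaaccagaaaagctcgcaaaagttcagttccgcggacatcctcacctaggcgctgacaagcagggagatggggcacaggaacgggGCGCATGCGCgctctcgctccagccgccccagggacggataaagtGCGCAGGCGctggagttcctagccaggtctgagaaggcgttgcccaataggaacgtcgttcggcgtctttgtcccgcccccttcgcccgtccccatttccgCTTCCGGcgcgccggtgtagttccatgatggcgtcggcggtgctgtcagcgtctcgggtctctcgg
Cox5a: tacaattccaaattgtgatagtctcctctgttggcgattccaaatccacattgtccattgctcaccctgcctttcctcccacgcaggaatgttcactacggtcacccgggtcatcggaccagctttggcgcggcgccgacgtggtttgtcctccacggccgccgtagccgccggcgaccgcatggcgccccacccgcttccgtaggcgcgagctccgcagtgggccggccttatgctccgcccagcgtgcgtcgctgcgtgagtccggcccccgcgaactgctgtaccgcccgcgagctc
Uqcrh: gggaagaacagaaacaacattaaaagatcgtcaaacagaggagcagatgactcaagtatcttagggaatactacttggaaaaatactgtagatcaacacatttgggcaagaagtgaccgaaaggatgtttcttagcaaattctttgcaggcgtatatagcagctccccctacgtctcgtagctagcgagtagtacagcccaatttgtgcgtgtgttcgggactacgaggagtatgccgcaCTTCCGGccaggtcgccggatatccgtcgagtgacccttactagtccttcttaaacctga

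Complex III was higher on average in Apoe-/- livers for all 8 tested members, with log2 fold changes from 0.50 (Cyc1) to 1.58 (Uqcrh) and none called. Uqcrh, the hinge protein that helps cytochrome c1 meet cytochrome c (chr4:116066965-116075070 of GRCm38), was at 351, 433, 393, 492 and 192 CPM in Apoe-/- replicates 1 to 5 and at 81.7, 231, 46.6 and 139 CPM in Mif-2-/-Apoe-/- replicates 1 to 4. All Apoe-/- libraries but replicate 5 lay above every Mif-2-/-Apoe-/- library. On average Uqcrh had 372 ± 114 CPM (SD, n = 5) and 125 ± 80.6 CPM (SD, n = 4). The log2 fold change of 1.58 (SE 0.44) came with adjusted p-values of 0.147 (edgeR) and 0.0199 (DESeq2). Uqcrfs1, the Rieske iron-sulphur protein that takes electrons from ubiquinol, was at 491, 348, 424, 672 and 160.5 CPM in Apoe-/- replicates 1 to 5 and at 109, 299, 126.5 and 109 CPM in Mif-2-/-Apoe-/- replicates 1 to 4. Again Apoe-/- replicate 5 lay below Mif-2-/-Apoe-/- replicate 2 and above the other Mif-2-/-Apoe-/- libraries, and the log2 fold change was 1.38 (edgeR, adjusted p = 0.175).

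The small subunit Uqcrq had the highest level per kilobase of transcript among the members of complex III, at 4812 CPM per kb, followed by Uqcr10 at 1067. Uqcrq was at 3544, 3463, 3137, 4201 and 1435 CPM in Apoe-/- replicates 1 to 5 and at 1062, 2649, 674 and 1662 CPM in Mif-2-/-Apoe-/- replicates 1 to 4. The genotypes overlapped through the same pair of libraries and through Mif-2-/-Apoe-/- replicate 4, and the log2 fold changes were 1.06 for Uqcrq and 1.17 for Uqcr10 (edgeR, adjusted p = 0.257 and 0.22). Cyc1, the cytochrome c1 of the catalytic core, differed least of the complex, with 472, 464, 395, 378 and 199 CPM in Apoe-/- and 274, 353, 172 and 277 CPM in Mif-2-/-Apoe-/- libraries and a log2 fold change of 0.50 (edgeR, adjusted p = 0.485). The core proteins Uqcrc1 and Uqcrc2, which hold the complex together on the matrix side, had log2 fold changes of 0.83 and 0.93. Uqcrb was low for a subunit (24.1 CPM on average) and Uqcr11 had at most 4 counts in any library, although both proteins belong to the same complex, so the counting of these genes, which have processed copies in the genome, is uncertain.

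Cytochrome c itself, the soluble carrier encoded by Cycs between complexes III and IV, was at 159.8, 141, 169, 228 and 32.5 CPM in Apoe-/- replicates 1 to 5 and at 28.7, 130.1, 23.4 and 27.7 CPM in Mif-2-/-Apoe-/- replicates 1 to 4. Apoe-/- replicates 1 to 4 lay above every Mif-2-/-Apoe-/- library, and Apoe-/- replicate 5 just above Mif-2-/-Apoe-/- replicates 1, 3 and 4. On average Cycs had 146 ± 71.4 CPM (SD, n = 5) and 52.5 ± 51.8 CPM (SD, n = 4). The log2 fold change of 1.49 (SE 0.60) came with adjusted p-values of 0.258 (edgeR) and 0.15 (DESeq2). Without Mif-2-/-Apoe-/- replicate 2 the log2 fold change was 2.56 (edgeR, adjusted p = 0.0399). It was 1.75 without Apoe-/- replicate 5 (edgeR, adjusted p = 0.0808) and 0.85 with the share of the 10 most highly expressed genes as a covariate (edgeR, adjusted p = 0.455). No fit without any other single library passed.

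In complex IV, 11 ubiquitous or liver-type members and 6 tissue-restricted isoforms were present. All 11 of the former had a log2 fold change above 0 (median 1.29), 8 of them at an unadjusted p under 0.05, and of the 5 tested isoforms 1 did (median -0.04), at none of which p was under 0.05. Cox5a, a matrix-facing subunit (chr9:57517328-57532427), had the largest fold change and the lowest p of all members, and was at 124, 139, 248, 337 and 81.5 CPM in Apoe-/- replicates 1 to 5 and at 30.3, 95.4, 17.1 and 20.3 CPM in Mif-2-/-Apoe-/- replicates 1 to 4. Apoe-/- replicates 1 to 4 lay above every Mif-2-/-Apoe-/- library, and replicate 5 fell below Mif-2-/-Apoe-/- replicate 2 only. On average Cox5a had 186 ± 104 CPM (SD, n = 5) and 40.8 ± 36.8 CPM (SD, n = 4). The log2 fold change of 2.21 (SE 0.57) came with adjusted p-values of 0.137 (edgeR) and 0.00822 (DESeq2). Without Mif-2-/-Apoe-/- replicate 2 the log2 fold change was 3.14 (edgeR, adjusted p = 0.0213). It was 2.39 without Apoe-/- replicate 5 (edgeR, adjusted p = 0.0530) and 1.69 with the share of the 10 most highly expressed genes as a covariate (edgeR, adjusted p = 0.152). No fit without any other single library passed.

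Cox8a, the ubiquitous form of the smallest subunit, was at 631, 805, 775, 1007 and 279.7 CPM in Apoe-/- replicates 1 to 5 and at 124, 495, 98.5 and 183 CPM in Mif-2-/-Apoe-/- replicates 1 to 4. As for Cox5a, only Apoe-/- replicate 5 lay below Mif-2-/-Apoe-/- replicate 2, and the log2 fold change was 1.64 (SE 0.49), with adjusted p-values of 0.169 (edgeR) and 0.0357 (DESeq2). Cox4i1, the main form of a regulatory subunit that binds ATP, had the highest level per kilobase in the complex (3101 CPM per kb). It was at 2844, 3023, 4131, 4673 and 1076 CPM in Apoe-/- replicates 1 to 5 and at 651, 2779, 723 and 1170.1 CPM in Mif-2-/-Apoe-/- replicates 1 to 4. Its log2 fold change was 1.24 (edgeR, adjusted p = 0.257), and that of Cox6b1, second by level per kilobase and placed on the side where cytochrome c docks, was 1.13 (adjusted p = 0.272). Cox7b, Cox6c, Cox5b and Cox7c had log2 fold changes between 0.78 and 1.41, none called. Cox7a2l, which joins complexes III and IV into supercomplexes, was at 146, 132, 92.5, 112 and 33.3 CPM in Apoe-/- replicates 1 to 5 and at 39.4, 67, 26.5 and 40 CPM in Mif-2-/-Apoe-/- replicates 1 to 4, and had a log2 fold change of 1.26 (edgeR, adjusted p = 0.198).

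Cox6a1, the form of subunit 6a found in liver (chr5:115345652-115348958), was at 936, 969.9, 1277, 1661 and 338 CPM in Apoe-/- replicates 1 to 5 and at 239.7, 824, 180.4 and 221 CPM in Mif-2-/-Apoe-/- replicates 1 to 4. Its muscle paralogue Cox6a2 was at 14.8, 27.9, 44.1, 20.2 and 16.1 CPM in Apoe-/- replicates 1 to 5 and at 25.8, 26.1, 34 and 14.9 CPM in Mif-2-/-Apoe-/- replicates 1 to 4. Cox6a1 had a log2 fold change of 1.50 (SE 0.52) and Cox6a2 one of -0.04 (SE 0.50), with edgeR adjusted p-values of 0.196 and 0.982. The share of Cox6a1 in the counts of the pair was 98.4, 97.2, 96.7, 98.8 and 95.5% in Apoe-/- and 90.3, 96.9, 84.1 and 93.7% in Mif-2-/-Apoe-/- libraries. Mif-2-/-Apoe-/- replicate 2 reached into the Apoe-/- range and the others lay below it, with means of 97.3% ± 1.36 (SD, n = 5) and 91.3% ± 5.47 (SD, n = 4). In the two-sided exact permutation test over all arrangements of the libraries p was 0.0238, or 0.0429 adjusted over the 9 paralogue shares tested.

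The muscle forms Cox8b and Cox7a1 stayed at 4.34 to 10.3 CPM and 8.47 to 15.9 CPM, with log2 fold changes of -0.04 and -0.20 whose sign turned under other scalings or without 1 library. The share of Cox8a against Cox8b was 98.7% ± 0.768 (SD, n = 5) in Apoe-/- and 95.4% ± 3.18 (SD, n = 4) in Mif-2-/-Apoe-/- libraries (exact permutation test, p = 0.0238, adjusted p = 0.0429). That of Cox6b1 against the testis form Cox6b2 was 99.8% ± 0.158 (SD, n = 5) and 96.2% ± 5.41 (SD, n = 4), with the same exact p-values. Its difference of 3.53 percentage points was 0.856 without Mif-2-/-Apoe-/- replicate 3. With Cox8b and Cox6a2 near a log2 fold change of 0, the Cox8a and Cox6a1 shares mostly follow the levels of Cox8a and Cox6a1. Neither of these 2 genes was called by edgeR, and the shares are not independent of each other. Cox7a1 made up 51.4% ± 14.9 (SD, n = 5) of the counts of Cox7a1 and Cox7a2 in Apoe-/- and 82.5% ± 12.7 (SD, n = 4) in Mif-2-/-Apoe-/- libraries (exact permutation test, p = 0.0397, adjusted p = 0.0595). Cox7a2, the liver form, was measured at only 1.22 to 18.9 CPM, and it has processed copies and near relatives that can split its reads, so this share is uncertain. The share of Cox4i1 against Cox4i2, the lung form, was 99.8% in both genotypes (exact p = 0.984), and that of Cox7a2l among Cox7a1, Cox7a2 and itself was 80.6% ± 7.33 (SD, n = 5) and 73.6% ± 2.14 (SD, n = 4) (exact p = 0.135, adjusted p = 0.173). Heart and skeletal muscle markers, among them Myh6 and Mb, summed to 152 to 508 CPM in Apoe-/- and 295 to 537 CPM in Mif-2-/-Apoe-/- libraries, and their part in the muscle-form counts was not tested.

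**Figure D4:**
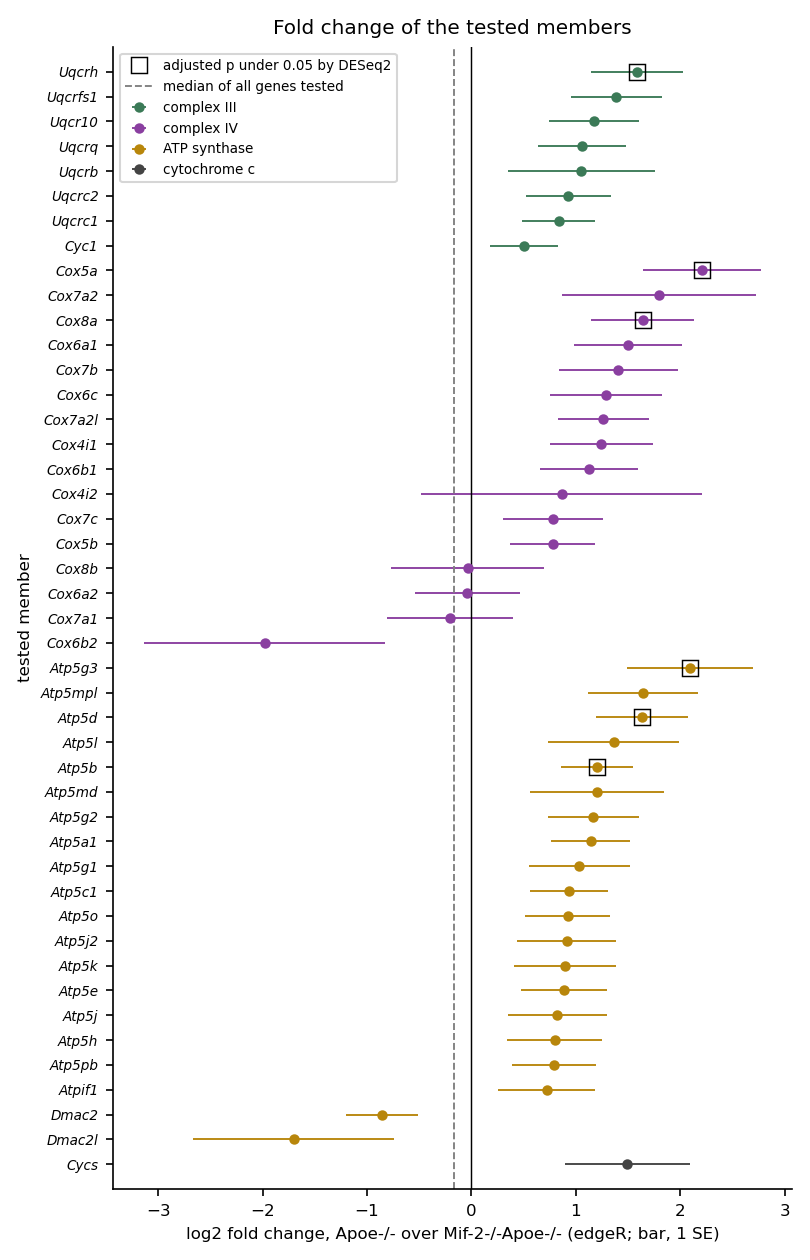
Log2 fold change, Apoe-/- over Mif-2-/-Apoe-/-, of the 45 tested members by edgeR, with bars of 1 SE. Squares mark the 6 members with an adjusted p under 0.05 by DESeq2 and the dashed line the median of all genes tested (-0.17). The points of complex III, of the ubiquitous complex IV subunits and of ATP synthase lie right of 0, while Cox6a2, Cox7a1 and Cox8b lie near 0 and Cox6b2, Dmac2 and Dmac2l left of it.

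In ATP synthase, all 18 genes other than Dmac2 and Dmac2l had a log2 fold change above 0, with a median of 0.98, and none was called by edgeR. The median was 1.14 for the 5 subunits of the catalytic F1 head and central stalk, 1.17 for the 3 c ring genes, 1.20 for the 5 small membrane subunits and 0.81 for the 4 subunits of the peripheral stalk that holds the head still. The inhibitor of ATP hydrolysis Atpif1 had 0.72. Atp5d, the delta subunit of the central stalk (chr10:80138698-80145828), was at 91.2, 159.8, 179, 194 and 80.7 CPM in Apoe-/- replicates 1 to 5 and at 43.1, 73.8, 49.1 and 16.7 CPM in Mif-2-/-Apoe-/- replicates 1 to 4. The genotypes did not overlap for this gene, which was higher in every Apoe-/- library, as were 2.24% of all genes. A two-sided exact permutation test gave p = 0.0079, the lowest value 9 libraries can give. This p restates the lack of overlap and is not adjusted over the genes. On average Atp5d had 141 ± 51.8 CPM (SD, n = 5) and 45.7 ± 23.5 CPM (SD, n = 4). The log2 fold change of 1.63 (SE 0.44) came with adjusted p-values of 0.144 (edgeR) and 0.0202 (DESeq2).

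Atp5b, the catalytic beta subunit, was at 683, 697, 540.4, 765 and 340.3 CPM in Apoe-/- replicates 1 to 5 and at 267, 358, 147 and 281 CPM in Mif-2-/-Apoe-/- replicates 1 to 4. Apoe-/- replicate 5 lay just below Mif-2-/-Apoe-/- replicate 2, and all other Apoe-/- libraries lay above both. The log2 fold change was 1.20 (SE 0.34), with adjusted p-values of 0.154 (edgeR) and 0.0133 (DESeq2). The other head and stalk subunits Atp5a1, Atp5c1 and Atp5e had log2 fold changes of 1.14, 0.93 and 0.89. Atp5e, the epsilon subunit of the central stalk, and the peripheral stalk subunit Atp5h had the highest levels per kilobase (1452 and 946 CPM per kb). Atp5h was at 717, 711, 906, 1109 and 300.3 CPM in Apoe-/- replicates 1 to 5 and at 257, 879.7, 209 and 377 CPM in Mif-2-/-Apoe-/- replicates 1 to 4, and with Mif-2-/-Apoe-/- replicate 2 among the Apoe-/- libraries its log2 fold change was 0.80 (edgeR, adjusted p = 0.418).

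The 3 genes Atp5g1, Atp5g2 and Atp5g3 encode the same mature c subunit behind different targeting peptides, and their balance differed between the genotypes. Atp5g3 (chr2:73908447-73912464) was at 201, 221, 255, 336 and 61.6 CPM in Apoe-/- replicates 1 to 5 and at 31.7, 131, 17.9 and 23.8 CPM in Mif-2-/-Apoe-/- replicates 1 to 4. Apoe-/- replicate 5 lay below Mif-2-/-Apoe-/- replicate 2, and the log2 fold change was 2.09 (SE 0.61), the largest of ATP synthase, with adjusted p-values of 0.158 (edgeR) and 0.0249 (DESeq2). Atp5g1 (chr11:96072793-96075694) was at 1144, 1095, 1400.02, 1430.4 and 379.6 CPM in Apoe-/- replicates 1 to 5 and at 354, 1187, 283 and 308 CPM in Mif-2-/-Apoe-/- replicates 1 to 4. Its log2 fold change of 1.03 and that of Atp5g2 (chr15:102662868-102671047), 1.17, were smaller (edgeR, adjusted p = 0.325 and 0.225).

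As a share of the counts of the 3 genes, Atp5g3 made up 13.9, 15.4, 14.3, 17.8 and 12.7% in Apoe-/- replicates 1 to 5 and 7.77, 9.37, 5.42 and 6.18% in Mif-2-/-Apoe-/- replicates 1 to 4. Every Apoe-/- library, replicate 5 included, lay above every Mif-2-/-Apoe-/- library, replicate 2 included. The means were 14.8% ± 1.93 (SD, n = 5) and 7.18% ± 1.75 (SD, n = 4), a difference of 7.65 percentage points (two-sided exact permutation test, p = 0.0079, adjusted p = 0.0357 over the 9 shares). The share of Atp5g1 went the other way, with 79.5, 76.3, 78.5, 75.9 and 78.2% in Apoe-/- and 86.6, 85.2, 85.9 and 80.1% in Mif-2-/-Apoe-/- libraries, again without overlap. Its means were 77.7% ± 1.54 (SD, n = 5) and 84.4% ± 2.95 (SD, n = 4), with the same exact p-values, but the 3 shares sum to 100% and are not independent. Atp5g2 made up 7.50% ± 1.21 (SD, n = 5) and 8.38% ± 3.86 (SD, n = 4) (exact permutation test, p = 0.722). Leaving out any 1 library moved the difference in the Atp5g3 share to between 6.90 and 8.38 percentage points. Without 1 library the adjusted p-values of the Atp5g3, Atp5g1 and Cox6a1 shares stayed under 0.05 only when that library was Mif-2-/-Apoe-/- replicate 2, and those of the Cox8a and Cox6b1 shares rose above it in every case. These are shares of reads and not of transcripts per length, and reads that match more than 1 of the 3 genes could have been split between them.

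**Figure D5:**
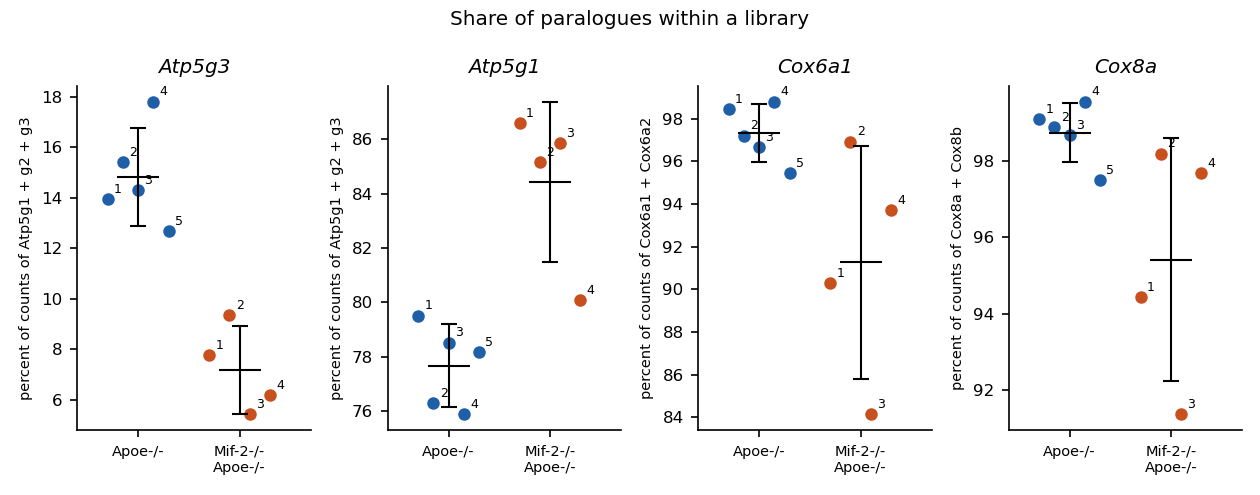
Share of 1 paralogue in the summed counts of its group (vertical axes, percent, not starting at 0) for Atp5g3, Atp5g1, Cox6a1 and Cox8a in each library. Numbers are replicates, horizontal marks the mean and bars 1 SD. The genotypes are separate for Atp5g3 (12.7% or more against 9.37% or less) and Atp5g1, and they overlap for Cox6a1 and Cox8a.

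Dmac2 differed from the subunits in direction. It was at 144, 179.9, 89.2, 152 and 120.2 CPM in Apoe-/- replicates 1 to 5 and at 372, 124, 224 and 272 CPM in Mif-2-/-Apoe-/- replicates 1 to 4. Mif-2-/-Apoe-/- replicates 1, 3 and 4 lay above every Apoe-/- library, Mif-2-/-Apoe-/- replicate 2 lay among them, and the log2 fold change was -0.86 (SE 0.34; edgeR, adjusted p = 0.258). Dmac2l was near the counting floor, at 0.403 to 9.37 CPM, with a log2 fold change of -1.70 (adjusted p = 0.415).

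Whether the complexes differed from each other was asked with the ratios of their summed counts within each library, which need no scaling. The log2 ratio of complex IV to ATP synthase was 0.21 ± 0.17 (SD, n = 5) in Apoe-/- and -0.13 ± 0.24 (SD, n = 4) in Mif-2-/-Apoe-/- libraries (two-sided exact permutation test, p = 0.0476, adjusted p = 0.143 over 3 ratios). The log2 ratio of complex III to complex IV was -0.34 ± 0.27 (SD, n = 5) and -0.11 ± 0.26 (SD, n = 4) (exact p = 0.214), and that of complex III to ATP synthase -0.13 ± 0.12 (SD, n = 5) and -0.24 ± 0.16 (SD, n = 4) (exact p = 0.27). No ratio passed after adjustment.

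The mitochondrially encoded subunits of the same complexes were, on average, lower in Apoe-/- livers and overlapped between the genotypes. Their summed level was 536, 671, 788, 737 and 1464 CPM in Apoe-/- and 1693, 780.3, 1015 and 999.5 CPM in Mif-2-/-Apoe-/- libraries. It was highest in Apoe-/- replicate 5 and Mif-2-/-Apoe-/- replicate 1, where the nuclear members were low. Mif-2-/-Apoe-/- replicates 3 and 4 were also low in the nuclear members (0.518 and 0.808% of counts), but their sums were only 1015 and 999.5 CPM. The median log2 fold change of the 5 tested was -0.45, 1 was above 0 and none was called. mt-Cytb, the cytochrome b of complex III, had 374, 457, 498, 459.8 and 859 CPM in Apoe-/- and 1064, 586, 601 and 638 CPM in Mif-2-/-Apoe-/- libraries (log2 fold change -0.45, edgeR adjusted p = 0.536), and mt-Co1, the catalytic subunit of complex IV, had a log2 fold change of -0.37 (adjusted p = 0.725). mt-Co2 averaged 13.9 CPM in Apoe-/- and 19.8 CPM in Mif-2-/-Apoe-/- libraries. mt-Co3 and mt-Atp6 stayed below 10 CPM and mt-Atp8 had a count in 1 library only, so most of this sum rests on mt-Cytb and mt-Co1. With levels this unequal between subunits of the same complexes, how fully these genes were counted is uncertain. The direction above holds for the counted reads only.

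Assembly factors of the complexes had smaller median fold changes than the subunits. By edgeR none of 6 tested for complex III, 28 for complex IV and 5 for ATP synthase was called, and their median log2 fold changes were 0.36, 0.33 and 0.61. Higd1a and Higd2a, which bind complex IV and its supercomplexes, had the lowest p, with log2 fold changes of 1.74 and 1.25 (edgeR, adjusted p = 0.22 and 0.242). Among 6 tested carriers of ATP, ADP and phosphate and their outer-membrane channels, 4 were above 0 (median 0.49), with Vdac1 at 0.94 and the ADP/ATP carrier Slc25a5 at 1.30 and none called. For comparison, all 37 complex I subunits (median 1.10), 77 of 81 cytosolic ribosomal proteins (median 0.77) and 62 of 77 mitochondrial ribosomal proteins (median 0.60) had log2 fold changes above 0, and edgeR called none of them.

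Of 15 transcriptional regulators of nuclear respiratory genes, 4 had a log2 fold change above 0 (median -0.40). Ppargc1b, a coactivator of the factors that drive these genes, was at 9.74, 8.58, 21.6, 5.04 and 17.2 CPM in Apoe-/- and 61.4, 52.8, 100.3 and 57.8 CPM in Mif-2-/-Apoe-/- libraries. Every Mif-2-/-Apoe-/- library lay above every Apoe-/- library, opposite to the subunits, with a log2 fold change of -2.47 (SE 0.48) and adjusted p-values of 0.0731 (edgeR) and 0.000118 (DESeq2). Among 14 genes for electron donors and cytochrome c haem attachment, Coq8a, a regulator of ubiquinone synthesis, was at 1409, 1248, 859.6, 1334 and 888 CPM in Apoe-/- and 447, 267, 278 and 468 CPM in Mif-2-/-Apoe-/- libraries. Here every Apoe-/- library lay above every Mif-2-/-Apoe-/- library, with a log2 fold change of 1.65 (SE 0.32) and adjusted p-values of 0.0662 (edgeR) and 5.0e-07 (DESeq2). Coq7, which hydroxylates the ubiquinone precursor, had a log2 fold change of 1.65 (adjusted p-values of 0.171 by edgeR and 0.0293 with DESeq2), while the median of the 14 was 0.33. In the list for cristae and inner membrane fusion, 6 of 11 were above 0 (median 0.20), with Micos13 at 1.21 and the prohibitin Phb at 0.98. None was called by edgeR, and DESeq2 called 1, Phb (adjusted p = 0.0361).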

How the data were processed

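Whole-number counts of reads per gene in 9 liver libraries were deposited by the authors without normalization, under Entrez identifiers. Per the study's methods, cDNA was amplified by Smart-seq2 from sections, and reads were checked with FastQC, trimmed with cutadapt, aligned with HISAT2 (mm10 in the submitters' processing notes) and counted on exons. The counting program and the treatment of reads with several matches are not given in the sources used here, and molecules were not tagged, so counts include PCR copies. One line without an identifier was left out. Symbols were matched to 25275 of 27179 identifiers through RefSeq (GRCm38.p6), and transcript lengths are medians of GENCODE M21 coding transcripts.

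Genotype groups follow the labels. A gene needed 1 count or more in 3 or more libraries of a genotype, and the 10 most abundant genes by mean CPM were removed. The study describes both steps for its liver lysate libraries, not used here, and not for these section libraries. This left 16860 genes for edgeR 4.0.16 (TMM, quasi-likelihood test, Benjamini-Hochberg adjustment, called under 0.05) in R 4.3.3, with DESeq2 1.42.0 as an alternative, which gave no adjusted p for 2859 genes. Shares and ratios were compared with two-sided exact permutation tests, in Python 3.11.15. The test was also run on simulated counts, and at the spread of these libraries it missed most 2-fold changes. A member that was not called may therefore still differ. The biological coefficient of variation was 0.909. The floor of 3 counts lay between 0.279 and 1.29 CPM of the library total and covers counting error only.

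The members and gene lists were chosen with earlier results of these data known. Named members are those with an adjusted p under 0.05 by either tool, the 3 with the lowest edgeR p and the 2 highest levels per kb in each complex, those of opposite sign at 10 CPM or more, the paralogue groups, Cyc1 and Cycs. Other settings are described with their effect in the closing section. The relation to hepatocyte transcripts was added after seeing the data. Protein sequences were not used here.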

Additional observations from a re-analysis of the deposited data

Results flagged for a closer look

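Within each genotype, the lowest and the highest library of each named member and of each summed complex were compared with the rest by Dixon's test on log2(CPM + 0.5), over 58 groups of libraries, of which chance alone marks about 1 in 20. In 11 of them 1 library lay far from the others, and it was always Apoe-/- replicate 5 or Mif-2-/-Apoe-/- replicate 2. The value is the gap to the nearest library divided by the range of the group.

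Apoe-/- replicate 5 was far below its group for Atp5e (336 against 763 CPM in the next library, gap 0.72), Atp5g1 (379.6 against 1095 CPM, 0.799), Uqcrq (1435 against 3137 CPM, 0.728), Cyc1 (199 against 378 CPM, 0.744), Cox6b1 (358 against 921 CPM, 0.727), Cycs (32.5 against 141 CPM, 0.752) and the summed level of complex III (2779.7 against 6011 CPM, 0.732). Mif-2-/-Apoe-/- replicate 2 was far above its group for Atp5g1 (1187 against 354 CPM, 0.845), Uqcrfs1 (299 against 126.5 CPM, 0.853), Cox7a2 (9.09 against 1.51 CPM, 0.909) and Cycs (130.05 against 28.7 CPM, 0.883). The members of this set share these 2 libraries, so the 11 cases are not independent of each other. The cause was not tested.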

How the results depend on the processing

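The median log2 fold change of each complex and of Cycs stayed above 0 in every setting run. For ATP synthase it lay between 0.53 and 1.09 across the fits that compared all 9 libraries. With the replicate number as a block, where Apoe-/- replicate 5 added nothing to the comparison, it was 1.35. No median of a complex moved by more than 1 SD between libraries, with 1 exception. That of ATP synthase ranged from 0.81 to 1.55 when a library was left out, highest without Mif-2-/-Apoe-/- replicate 2. Without Dmac2 and Dmac2l it was 0.98. Calls were less stable than directions. DESeq2 called 690 genes in all, 1 member of complex III, 2 of complex IV and 3 of ATP synthase, and a threshold of 0.1 called 43 genes and no member. RLE and TMMwsp size factors, no filter or filterByExpr, a fit that kept the 10 most abundant genes, one that dropped 1086 genes (mitochondrial, rRNA, Gm and Rik names), one with the abundant genes' share as covariate and thinned counts called 21 to 32 genes and no member. Leaving out 1 library in turn called 9 to 262 genes, with 0 to 2 members of complex III, 0 to 5 of complex IV, 0 to 5 of ATP synthase and 0 to 1 for Cycs, and all member calls came without Mif-2-/-Apoe-/- replicate 2. The median over all genes was 0.00 with TMMwsp and -0.28 without a filter.

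With the replicate number as a block, 560 genes were called and 20 members, all higher in Apoe-/- livers (1.95% of all genes were called higher), with 4 of complex III, 8 of complex IV, 7 of ATP synthase and Cycs. Replicate number 5 exists only in Apoe-/-, so that library stood alone in its block and added nothing to the genotype difference. The fit thus compared 4 libraries of each genotype. The numbers did not pair the samples, since the correlations of same-numbered libraries were 0.14, -0.02, 0.01 and -0.03 and of the libraries numbered 1 to 4 only Apoe-/- replicate 1 correlated best with its own number.

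For the 26 single members named, 471 values kept their direction and side of the threshold, 30 passed the threshold and 19 changed sign, the last at Cox4i2, Cox6a2, Cox7a1 and Cox8b. Cox6a2 was at 0.15 and Cox8b at 0.13 with TMMwsp, at 0.0403 and 0.0393 with the 10 most abundant genes kept and at 0.0406 and 0.0379 with the gene classes removed, and under the replicate block Cox4i2 was at -0.27 and Cox6a2 at 0.0299. With 1 library left out, Cox6a2 ranged from -0.26 to 0.17, Cox8b from -0.23 to 0.17, Cox7a1 from -0.31 to 0.0315 and Cox4i2 from -0.22 to 1.6.

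Members not overlapping between the genotypes numbered 1 to 22 with 1 library left out, and 7 relative to the hepatocyte transcripts. The differences in paralogue shares (percentage points, Apoe-/- minus Mif-2-/-Apoe-/-) with 1 library left out were 6.90 to 8.38 for Atp5g3, -8.21 to -6.04 for Atp5g1, 3.68 to 7.94 for Cox6a1, 0.856 to 4.67 for Cox6b1, 1.98 to 4.26 for Cox8a, -37.3 to -25.9 for Cox7a1, -1.86 to 0.90 for Atp5g2 and -0.109 to 0.064 for Cox4i1. The adjusted p of the Atp5g3 share was then 0.0402 to 0.129, where 8 libraries allow no raw p below 0.0286 (4 against 4) or 0.0179 (5 against 3). The 3 complex ratios stayed on the same side of the threshold, also without the member with the most counts in each complex. The shallowest library, Mif-2-/-Apoe-/- replicate 2, holds 2318148 counts.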

Other observations

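Among the members of low level, Cox6b2 had 17.0 and 18.9 CPM in Mif-2-/-Apoe-/- replicates 2 and 3 and at most 4.84 CPM in every other library, a log2 fold change of -1.98 (SE 1.16, edgeR adjusted p = 0.431). Cox8c, another testis form, had 7.06 and 14.7 CPM in Apoe-/- replicates 4 and 5 and at most 1.22 CPM elsewhere. Cox4i2, the lung form, reached 9.49 CPM in Apoe-/- replicate 5 and was at 0 in Mif-2-/-Apoe-/- replicate 2.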
